A study of Mus musculus with 6 samples.

Results

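Inhibitory co-receptors of B cells and the phosphatases they recruit were followed in a mouse B progenitor acute lymphoblastic leukemia in which the transcription factor Pax5 was restored. The set holds 6 receptor genes (Cd22, Siglecg, Cd72, Fcgr2b, Pirb and Lair1) and 2 phosphatase genes (Ptpn6 and Inpp5d). They were chosen by name with earlier results of these data known, and all 8 were found among 26286 genes of the table. RNA sequencing covered 3 libraries from untreated mice (GFP-high cells) and 3 from mice that ate doxycycline (dox) food for 3 days (GFP-mid cells). All 6 libraries came from 1 tri-transgenic leukemia, A024, sorted from the marrow of Rag1 knockout mice, animals that lack mature B and T cells of their own but keep myeloid and NK cells. The labels call the dox group Pax5 restoration and do not describe the transgenes. As background, in the published model dox shuts off a short hairpin RNA against Pax5 that is transcribed together with GFP. Dox, the sort gate and Pax5 restoration changed together and cannot be told apart. The design text names a separate mouse for each library, so p-values measure the spread between mice carrying the same leukemia.

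When the B cell receptor is engaged, Src family kinases phosphorylate both the receptor's activating chains and tyrosines in the cytoplasmic tails of inhibitory receptors, in a short motif called the ITIM. Phosphorylated ITIMs recruit SHP-1, a tyrosine phosphatase encoded by Ptpn6, or SHIP-1, a lipid phosphatase encoded by Inpp5d that removes a phosphate from the membrane lipid made by PI3 kinase. CD22, Siglec-G and CD72 act mainly through SHP-1, whereas the Fc receptor encoded by Fcgr2b acts mainly through SHIP-1. The set therefore restrains the signal that drives B cell activation, and several of its members are known to appear as B cells mature.

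The DNA before the transcription start of 3 receptor genes is shown because these genes span the range of response described below, from the largest rise (Cd22) and that of its relative Siglecg to the receptor whose difference missed the threshold (Fcgr2b). The sequences are from the RefSeq promoter table (GRCm38.p6, another build than the mm9 of the counts), cover 250 bases up to the start and are written 5′ to 3′ in the direction of the gene. Capitals mark matches of the motifs named in the next paragraph, of which the printed stretch of Siglecg holds none.
Cd22 (chr7:30879029-30879278, minus strand): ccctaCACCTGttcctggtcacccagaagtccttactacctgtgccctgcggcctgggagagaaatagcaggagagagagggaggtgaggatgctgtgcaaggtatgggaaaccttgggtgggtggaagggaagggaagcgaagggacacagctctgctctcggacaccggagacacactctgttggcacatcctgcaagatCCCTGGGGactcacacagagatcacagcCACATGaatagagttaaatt
Siglecg, first of its 2 listed starts (chr7:43407989-43408238, plus strand): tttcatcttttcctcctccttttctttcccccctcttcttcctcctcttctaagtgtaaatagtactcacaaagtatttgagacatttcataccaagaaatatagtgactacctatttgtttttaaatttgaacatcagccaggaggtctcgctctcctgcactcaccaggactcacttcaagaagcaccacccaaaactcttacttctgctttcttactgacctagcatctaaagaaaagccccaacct
Fcgr2b (chr1:170976072-170976321, minus strand): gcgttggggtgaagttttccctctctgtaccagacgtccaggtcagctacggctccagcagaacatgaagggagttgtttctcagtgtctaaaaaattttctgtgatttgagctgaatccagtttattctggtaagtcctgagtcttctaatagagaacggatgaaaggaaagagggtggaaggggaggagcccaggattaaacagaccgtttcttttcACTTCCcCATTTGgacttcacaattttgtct

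4 short motifs were looked for on both strands in windows of 300 bases, from 250 before to 50 after the start. GCGTGAC, the letters of a Pax5-type partial site, was found in 0 of the 8 genes' windows and in 2.09% of all 32851 promoters. CCCNNGGG, an EBF-type core, was found in Cd22 alone, 48 bases before its start, and in 13.7% of all promoters. GGAAGT, an ETS-type core, was found in 5 of 8 genes (Cd72, Fcgr2b, Pirb, Ptpn6 and Inpp5d) and in 23.8% of promoters, and in 3 of 8 on the gene's own strand alone. CANNTG, the E-box, was found in all 8 (in Siglecg only in the window of its second start) and in 72.3% of promoters. None of these motifs overlapped another in the printed stretches, and a match or its absence describes letters in these windows only.

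Pax5 itself measured 127, 77.4 and 87.1 RPKM (reads scaled to gene length and library size) in untreated replicates 1, 2 and 3 and 188, 233 and 191 RPKM in dox replicates 1, 2 and 3. All 3 dox libraries were thus above all 3 untreated ones, in the direction that the labels name. Total counts per library ran from 14185203 to 15612435.

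After dox, 6 of the 8 genes rose. These were Cd22, Siglecg, Cd72, Pirb, Ptpn6 and Inpp5d, against 27.0% of the 12275 genes tested that were called higher (edgeR quasi-likelihood test, called at a p under 0.05 after Benjamini-Hochberg adjustment over the whole table). Fcgr2b missed the threshold and Lair1 had too few counts to be tested. Called in either direction were 53.6% of all genes. The set was chosen with earlier results of these data known, so its counts are not independent of them. Cd22, Siglecg and Pirb rose more than 4-fold, as did 2.13% of all genes. None was called lower by edgeR, against 26.6% of all genes tested at the same adjusted threshold, or by the DESeq2 test. In the edgeR fit 0 members had an unadjusted p under 0.05 with a lower level. Pirb passed the filter on low counts through the dox libraries, so its presence among the genes tested depends on its level there. The same 6 genes were called without each of the 6 libraries in turn. With a minimum fold change of 1.5 the 4 called were Cd22, Siglecg, Cd72 and Pirb. At that minimum, 928 of the 12275 genes tested were higher and 670 lower.

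**Figure D1:**
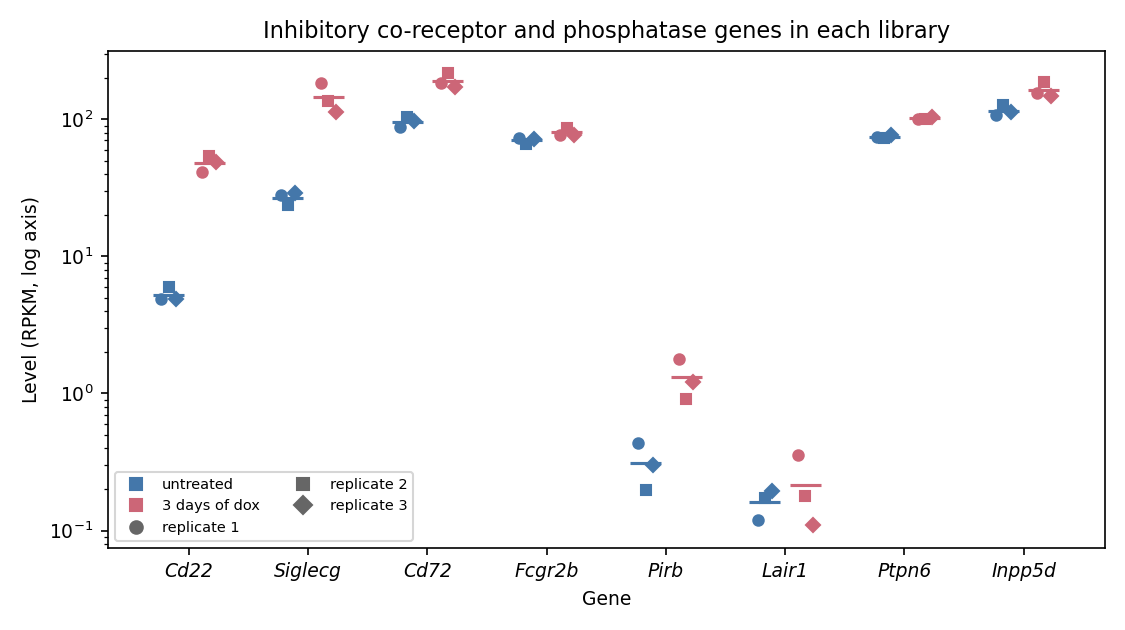
Level of each gene in each library in RPKM (log axis), untreated in blue and dox in red, with a symbol for each replicate number and a line at the group mean. Groups lie apart for every gene except Lair1, as they do for 62.2% of all genes tested. Cd22 moves farthest, from a mean of 5.25 to 48.2 RPKM.

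Cd22 encodes a sialic acid-binding lectin (Siglec) of B cells that recruits SHP-1 to the B cell receptor. It measured 4.88, 6.003 and 4.87 RPKM in untreated replicates 1, 2 and 3 and 41.3, 54.3 and 49.1 RPKM in the dox replicates. The lowest dox library was thus far above the highest untreated one. The fold change was 9.18 (log2 fold change 3.20, SE 0.13, 95% interval 2.91 to 3.48, edgeR adjusted p = 7.15e-07), larger than that of 99.4% of genes tested.

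Siglecg encodes a related Siglec that is known for restraining calcium signals in B-1 cells. Its untreated levels were 27.8, 23.5 and 29.0 RPKM, and its dox levels 185, 135 and 113 RPKM in replicates 1, 2 and 3. The groups did not overlap, and dox replicate 1 stood above the other two. This was a 5.40-fold rise (log2 2.43, SE 0.17, interval 2.05 to 2.82, edgeR adjusted p = 1.01e-05), and the log2 value was 2.21 without dox replicate 1. Per length, Siglecg remained more abundant than Cd22 in all 6 libraries, by 5.71, 3.92 and 5.95 times in untreated replicates and by 4.48, 2.50 and 2.31 times in dox replicates 1, 2 and 3. These ratios overlapped between the groups.

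Cd72 encodes a C-type lectin that binds the semaphorin CD100 and recruits SHP-1. It measured 88.03, 103 and 97.4 RPKM before and 185, 216 and 171 RPKM after dox. It was the most abundant of the 6 receptors in both groups by the group mean, and every dox library exceeded every untreated one. Its level rose 1.98-fold (log2 0.99, SE 0.10, interval 0.76 to 1.21, edgeR adjusted p = 5.25e-05). On the reference Cd72 overlaps Tesk1, a kinase gene at 23.0 CPM (counts scaled to library size) before and 21.2 CPM after dox, and without a known strand setting their shared reads cannot be told apart.

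Fcgr2b encodes the inhibitory receptor for the Fc part of IgG, which couples the B cell receptor to SHIP-1 when antigen arrives as an immune complex. Its levels were 72.5, 66.2 and 71.8 RPKM in untreated and 77.4, 85.9 and 76.9 RPKM in dox replicates 1, 2 and 3. The groups did not overlap, as for 62.2% of all genes tested, but the distance was small. Its level differed 1.14-fold (log2 0.19, SE 0.073, interval 0.026 to 0.36), with an edgeR adjusted p = 0.0516 and an unadjusted p = 0.0278 from the same fit. The call moved with the processing, at adjusted p = 0.0387 under upper-quartile scaling and 0.0467 with a minimum of 1 CPM in 3 libraries. Fcgr2b was already at 70.1 ± 3.45 RPKM before dox (SD, n = 3), the second most abundant receptor of the set.

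Pirb encodes a paired immunoglobulin-like receptor that binds MHC class I and is known from myeloid as well as B cells. It was detected at a low level, with 17, 8 and 12 counts in untreated and 74, 36 and 52 counts in dox replicates 1, 2 and 3. The lowest dox library held more counts than the highest untreated one. Its level rose 4.202-fold (log2 2.07, SE 0.36, interval 1.25 to 2.89, edgeR adjusted p = 0.0012). Reads of Pirb and of its near-identical activating relatives may have been split or lost in counting, and Pira1, its neighbour on the reference, also rose from 7, 2 and 3 to 23, 12 and 11 counts, a call that was lost without untreated replicate 2, untreated replicate 3 or dox replicate 1.

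Markers of myeloid cells were higher after dox as well. The 15 macrophage and monocyte markers summed to between 21.1 and 29.8 CPM in untreated and between 54.8 and 117.9 CPM in dox libraries, and 10 of the 12 tested rose. The 11 neutrophil markers summed to between 86.1 and 111.3 CPM in untreated and to 515.5, 108.0 and 245.4 CPM in dox replicates 1, 2 and 3, and 8 of 9 tested rose. Over all genes tested, 27.0% were called higher. Several macrophage markers with few untreated counts, such as Adgre1, Mertk and Spic, passed the filter on low counts through the dox libraries. The count of those that rose thus depends in part on levels there. No marker of either list was at 0 in all libraries, and by mean CPM over all 6 libraries the most abundant were Lyz2 and Vcam1 in the first list and S100a9 and S100a8 in the second. In untreated libraries alone Cd68 stood above Vcam1 and Ngp above S100a8. Within each group Pirb and both marker sums were highest in replicate 1 and lowest in replicate 2. In dox replicate 2 the neutrophil sum lay inside the untreated range while Pirb, at 2.51 CPM, lay above the untreated maximum of 1.19 CPM. Without dox replicate 1 the log2 fold change of Pirb was 1.78 (edgeR adjusted p = 0.00383). The part of these cells in the rise of Pirb was not tested, and in bulk samples more cells of a type and more RNA per cell cannot be told apart.

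Lair1 encodes a receptor for collagen. It was at 6, 9 and 10 counts in untreated and 19, 9 and 6 counts in dox replicates 1, 2 and 3. The groups overlapped, and the library with the most counts was dox replicate 1, which also had the most myeloid marker reads. With no filter on low counts the log2 fold change was 0.36 (SE 0.51, edgeR adjusted p = 0.598 over 17349 genes), so that a difference was not detectable at this depth.

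**Figure D2:**
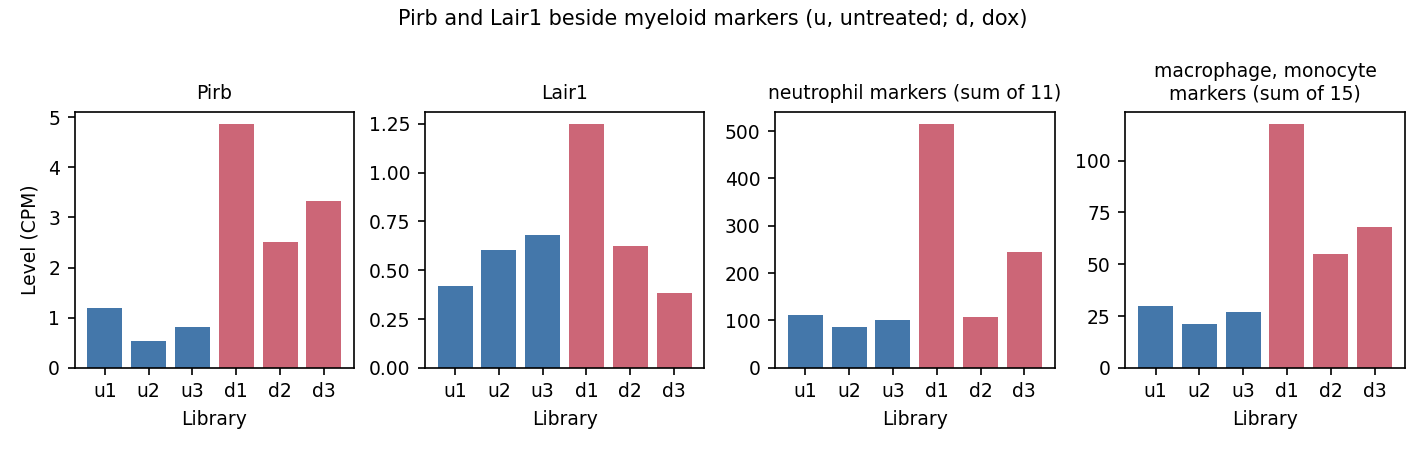
Bars give the level in CPM, each panel on its own axis from 0, of Pirb, Lair1 and the summed neutrophil and macrophage or monocyte markers in untreated (u1 to u3) and dox (d1 to d3) libraries. Dox replicate 1 is the highest library in all 4 panels, at 4.87 CPM for Pirb and 515.5 CPM for the neutrophil markers.

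Ptpn6 encodes SHP-1, the tyrosine phosphatase that ITIMs recruit. It measured 74.3, 72.4 and 76.7 RPKM in untreated and 101, 101 and 104 RPKM in dox replicates 1, 2 and 3. The spread within each group was the smallest of the set relative to the level, and the groups lay apart. The fold change was 1.37 (log2 0.45, SE 0.06, interval 0.32 to 0.59, edgeR adjusted p = 0.000258). Its closest relative Ptpn11, which encodes SHP-2, fell by 0.27 on the log2 scale (SE 0.06, edgeR adjusted p = 0.00509). Per length, Ptpn6 exceeded Ptpn11 by 2.18, 1.97 and 2.25 times in untreated and by 3.53, 3.46 and 3.60 times in dox replicates 1, 2 and 3, ranges that did not overlap.

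Inpp5d encodes SHIP-1, which turns the PI3 kinase product PIP3 into another lipid and so limits recruitment of Btk and Akt. Its levels were 107, 126 and 113 RPKM before and 156, 188 and 148 RPKM after dox. Replicate 2 was the highest library in both groups, and the groups did not overlap. The fold change was 1.42 (log2 0.51, SE 0.10, interval 0.27 to 0.74, edgeR adjusted p = 0.00291). Inppl1, which encodes the broadly expressed SHIP-2, had a log2 fold change of −0.11 (SE 0.15) and did not pass the test. The ratio of Inpp5d to Inppl1 was 2.25, 3.67 and 2.59 in untreated and 5.04, 4.51 and 3.41 in dox replicates 1, 2 and 3, so the groups overlapped.

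The order of levels per length changed among the receptors. In untreated libraries the order of the means was Inpp5d, Cd72, Ptpn6, Fcgr2b, Siglecg, Cd22, Pirb and Lair1, and of neighbours in that order Ptpn6 and Fcgr2b alone had overlapping ranges. After dox it was Cd72, Inpp5d, Siglecg, Ptpn6, Fcgr2b, Cd22, Pirb and Lair1, with overlapping ranges for Cd72 and Inpp5d and for Inpp5d and Siglecg. Summed over the 6 receptors the level was 194, 199 and 204 RPKM in untreated and 491, 493 and 411 RPKM in dox replicates 1, 2 and 3. Cd72 and Fcgr2b made up 48.4% ± 3.22 and 35.3% ± 2.10 of this sum before dox and 41.0% ± 3.12 and 17.3% ± 1.46 after it (SD, n = 3). The share of Siglecg went from 13.5% ± 1.45 to 30.9% ± 5.89 and that of Cd22 from 2.64% ± 0.327 to 10.5% ± 1.82. Fcgr2b thus took a smaller share in every dox library although its own level was not lower.

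**Figure D3:**
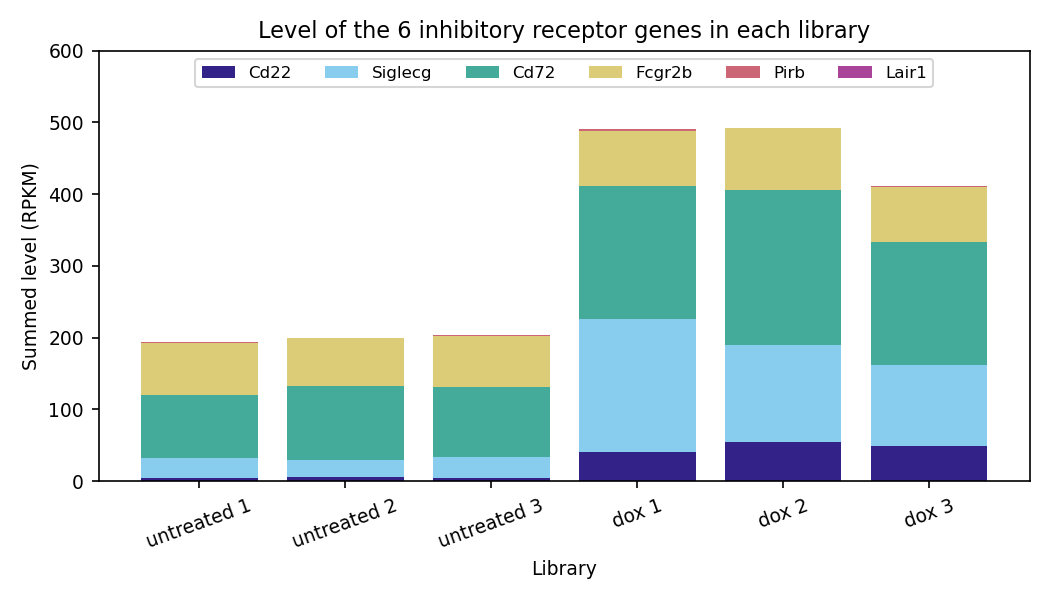
Stacked bars give the level in RPKM of the 6 inhibitory receptor genes in each library. The sum lies between 194 and 204 RPKM in untreated and between 411 and 493 RPKM in dox libraries, with the added height mostly in Siglecg (light blue), Cd72 (green) and Cd22 (dark blue).

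The Src family kinases, which phosphorylate ITIMs, changed in both directions. Of 8 listed, 7 were tested, 4 rose (among them Lyn, Blk and Fgr), 1 fell (Lck) and 2 did not pass (Fyn and Src). Their median log2 fold change was 0.78, against 0.014 over all genes tested, of which 27.0% were called higher and 26.6% lower. Lyn, the kinase known to act on CD22, went from 32.4 to 102 RPKM (log2 1.66, SE 0.07), Blk from 50.8 to 135 RPKM (1.41, SE 0.22) and Lck, best known from T cells, from 135 to 43.4 RPKM (−1.63, SE 0.18). Src was called lower too without dox replicate 2 (log2 fold change −1.46), and the rise of Fgr was called without dox replicate 2 but lost without any of the other 5 libraries. These values are log2 differences from the edgeR fit, each called at adjusted p under 0.05.

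The B cell receptor and its activating co-receptor genes were mostly higher. All 16 were tested, with a median of 0.78. Of these, 13 rose and 2 fell (Cd81, by 0.34, and Plcg2, by 0.25 on the log2 scale). Among all genes tested, 27.0% were called higher and 26.6% lower, with a median of 0.014. Cd79b, a signalling chain of the receptor, rose by 1.15 (SE 0.08), the kinase gene Syk by 1.00 (SE 0.08), Pik3ap1, an adaptor of PI3 kinase, by 2.07 (SE 0.14) and Bank1, a B cell scaffold, by 2.18 (SE 0.20). Without untreated replicate 2, untreated replicate 3 or dox replicate 1, Cd81 alone was called lower. Cd22 gained on the receptor chain. Its ratio to Cd79b per length was 0.00891, 0.0115 and 0.00944 in untreated and 0.0333, 0.0456 and 0.0458 in dox replicates 1, 2 and 3. The groups lay apart in this ratio.

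Other inhibitory receptors and related genes, such as Fcrl1 and Fcrla, were listed for comparison. They were 30 in all, of which 16 had enough counts to be tested. A place in the list does not by itself show that a gene inhibits. Of the 16 tested, 10 rose, 0 fell and 6 did not pass, against 27.0% higher and 26.6% lower over all genes tested. Their median log2 fold change was 1.34. Listed genes with few counts enter the test more readily when they are high after dox. Cd300a, Lilr4b and Btla, all called higher, passed the filter on low counts through the dox libraries. The count of 10 and the median thus depend in part on levels there. Vsir, which encodes the checkpoint ligand VISTA, rose by 3.54 (SE 0.11), Ceacam1, an ITIM-bearing adhesion molecule, by 1.63 (SE 0.12), Fcrl1, an Fc receptor-like gene of B cells, by 1.54 (SE 0.16) and Sirpa, a receptor of myeloid cells for CD47, by 2.17 (SE 0.26). Sirpa stayed low, at 0.302 RPKM before and 1.37 RPKM after dox, beside the rise of macrophage markers given above. With a minimum fold change of 1.5, 5 of the 10 were called (Cd300a, Ceacam1, Fcrl1, Sirpa and Vsir), with the same limit for Cd300a.

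Activating receptors and adaptors that pair with such inhibitory receptors were scarce. Of 17 listed, 14 were found and 4 tested, with 2 higher and 0 lower, against 27.0% and 26.6% of all genes tested. Tyrobp, the adaptor DAP12, measured 23, 11 and 18 counts in untreated and 81, 28 and 42 in dox replicates 1, 2 and 3. Neither Tyrobp nor Pira1 was called without untreated replicate 2 or without dox replicate 1, and only Tyrobp was called without untreated replicate 3. Fcgr3, the activating relative of Fcgr2b, was at 1.32 and 1.35 RPKM and Fcer1g, the signalling chain of Fc receptors, at 11.8 and 10.8 RPKM before and after dox, and neither passed the test. Fcgr2b at 70.1 and 80.1 RPKM was thus the predominant Fc gamma receptor gene of those measured here (Fcgr1, Fcgr3 and Fcgr4 being the others) in both groups.

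Of 25 other phosphatases and inhibitory adaptors, 21 were tested, of which 9 rose, 3 fell (Ptpn11, Ptpn7 and Ubash3a) and 9 did not pass. Their median log2 fold change, 0.058, lay near the 0.014 of all genes. Called higher were 27.0% of all genes tested, and lower 26.6%. Ptprj, a receptor phosphatase known to control Src kinases, rose by 1.03 (SE 0.07) and Ptpn22, a phosphatase of antigen receptor signalling, by 1.25 (SE 0.28). The fall of Ptpn7 was lost without untreated replicate 2, untreated replicate 3 or dox replicate 1. Ptpn22 was highest in dox replicate 2, with 1886 counts against 877 and 976 in dox replicates 1 and 3. With a minimum fold change of 1.5, 1 was higher (Ptprj) and 0 were lower.

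Genes of the ligands changed in both directions. Of 30 listed, 17 were tested, 11 rose, 2 fell and 4 did not pass, with a median of 0.47. The shares over all genes tested were 27.0% higher and 26.6% lower. Genes that bear on Siglec ligands were called in both directions. St6gal1, which makes the sialic acid linkage that CD22 binds, went from 63.4 to 43.3 RPKM (log2 −0.55, SE 0.09, edgeR adjusted p = 0.00101), and Cd24a, which encodes a ligand of Siglec-G, from 1062 to 578 RPKM (−0.88, SE 0.08, adjusted p = 3.19e-05). Of the genes of sialic acid synthesis and modification, Cmah rose by 0.48 (SE 0.16, adjusted p = 0.0269), Cmas by 0.27 (SE 0.09, adjusted p = 0.0318) and Casd1 by 0.47 (SE 0.18, adjusted p = 0.0488). The groups overlapped for Cmah and Casd1. Gne (0.098, SE 0.12) and Siae (−0.022, SE 0.28), of the same kind, did not pass the test. The MHC class I genes bound by PIR-B rose, H2-K1 by 0.53 (SE 0.11), H2-D1 by 0.57 (SE 0.10) and B2m by 0.33 (SE 0.08). Sema4d, which encodes the CD72 ligand CD100, was at 43.3 and 43.4 RPKM. Among collagens, the ligands of LAIR1, Col5a3 went from 2, 1 and 1 counts to 505, 259 and 631 counts (edgeR adjusted p = 5.55e-06), and it passed the filter on low counts through the dox libraries. C1qb and C1qc, which are also macrophage markers, rose by 2.67 (SE 0.38) and 2.53 (SE 0.32). Both also passed that filter through the dox libraries, as did C1qa and Col1a1. The count of 11 ligand genes that rose thus depends in part on levels there. Without untreated replicate 2 or without dox replicate 1, 7 rose (B2m, C1qa, C1qb, C1qc, Col5a3, H2-D1 and H2-K1).

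**Figure D4:**
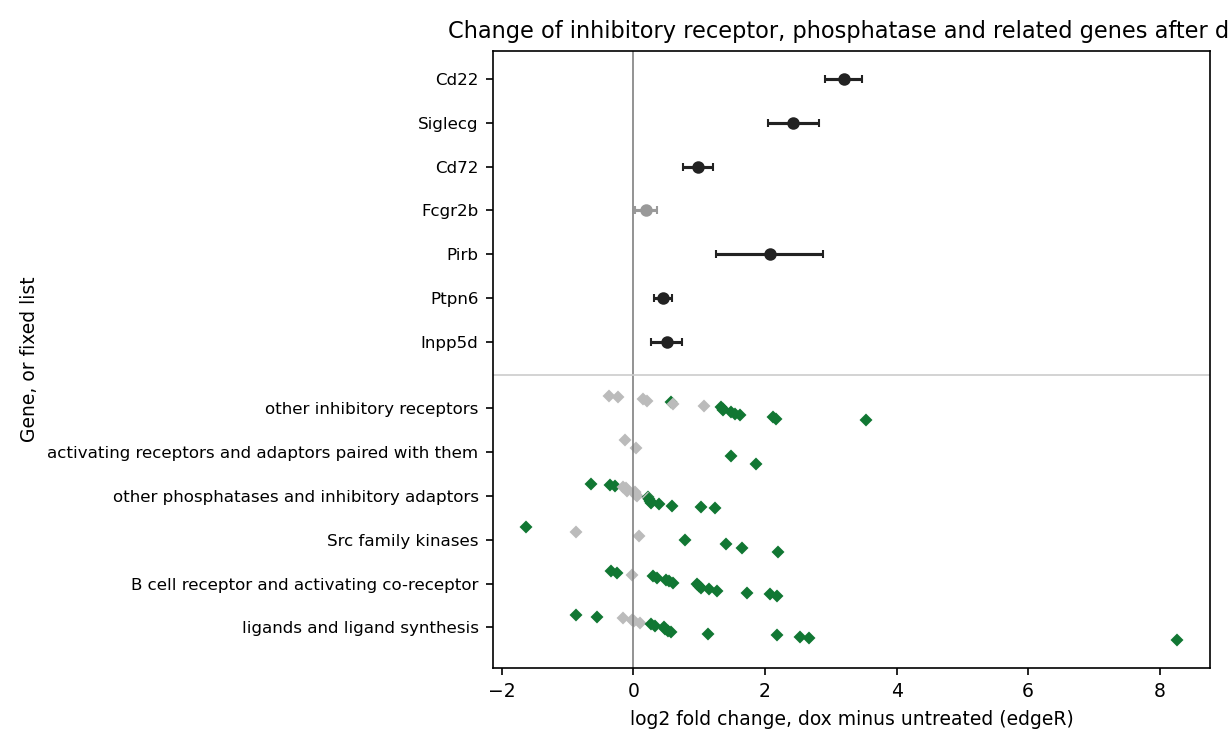
Log2 fold change, dox minus untreated, of the 7 tested members with 95% intervals (black when called, grey when not) and of tested genes in 6 fixed lists (green when called, grey when not). Cd22, Siglecg and Pirb lie above 2, Cd72 near 1 and both phosphatases near 0.5, while Col5a3 lies farthest right at a value that depends on its few untreated counts.

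The sorted cells carried the markers of their lineage. The markers named for each list are its 2 highest by mean CPM over all 6 libraries, an order that can differ within a group. The 10 B lineage markers summed to between 8332 and 8842 CPM in untreated and between 12448 and 13753 CPM in dox libraries (Ighm and Cd24a), and 9 rose while Cd24a fell. Sums stayed at 12.5 CPM or less before and 12.96 CPM or less after dox for T cell markers (Thy1 and Cd4, with Cd3e, Cd8a and Cd28 at 0), and at 5.71 and 10.2 CPM or less for NK cell markers (Klrb1c and Prf1, with Eomes at 0). Erythroid markers (Hbb-b1 and Hba-a1) reached 5.66 and 8.16 CPM, and dendritic cell markers (Bst2 and Flt3, with Cd209a at 0) 25.6 and 34.1 CPM. The stroma and endothelium list reached 103 and 161 CPM, nearly all of it Pecam1, itself an inhibitory receptor of leukocytes, followed by Col1a1. The plasma cell list lay between 1365 and 1572 CPM before and between 1736 and 2314 CPM after dox. Its 2 highest were Irf4 and Xbp1, with Jchain above Xbp1 in the untreated mean. Of its 5 tested genes, 3 were higher and 2 lower. Beside these counts and those of the B lineage list, 27.0% of all genes tested were called higher and 26.6% lower.

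Position on the chromosome was not used to choose the set. In the RefSeq gene order of GRCm38.p6, the protein-coding neighbours of Cd22 are Ffar1, a fatty acid receptor gene, and Mag, which encodes another Siglec. Ffar1 rose from 0.183 to 2.18 CPM (log2 3.53, SE 0.41, edgeR adjusted p = 0.000117), and Mag had too few counts to be tested. Like Pirb, Ffar1 and Pira1 passed the filter on low counts through the dox libraries, so that their presence among the genes tested depends on their levels there. Sit1, a neighbour of Cd72 that encodes an adaptor binding SHP-2, rose by 0.74 (SE 0.12). Phb2, next to Ptpn6, fell by 0.43 (SE 0.07), and Grcc10 on its other side did not pass the test (0.082, SE 0.079). Atg16l1, the tested neighbour of Inpp5d, did not pass either. Next to Pirb, Rps9 did not pass the test on one side, while Pira1 on the other was called higher.

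The genes whose log2 CPM ran closest to Cd22 over the 6 libraries, among those with a mean of at least 5 CPM, were Gsn (Pearson r = 0.999), Ltbp4 (0.999) and Rmnd1 (0.999). Those closest to Ptpn6 were Sri (0.999), Zeb2 (0.998) and Tpt1 (0.998). These 6 libraries fall into 2 groups and share depth and treatment, so the values mainly restate the difference between groups and are given as a description.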

How the data were processed

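The authors deposited raw counts, one whole number per gene and library, beside each gene's Entrez identifier and length. CASAVA 1.8.2, featureCounts and build mm9 are named in the submitters' processing notes, while aligner, annotation and strandedness were not given in the sources used here. RefSeq gave symbols for 24176 of 26286 identifiers. Of 210 list entries, 206 were found. The 6 per-sample files hold the same counts as the series table.

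Genes were kept by filterByExpr (minimum count 10), scaled by TMM and compared between groups without covariates by the quasi-likelihood test of edgeR 4.0.16 (R 4.3.3). The SE is the size of the log2 fold change divided by the square root of F, and intervals use the residual and prior degrees of freedom. CPM and RPKM use TMM library sizes. An exact two-sided permutation test cannot go below p = 0.1 with 3 libraries against 3; it gave 0.1 for 7 of the genes and 0.8 for Lair1. Replicates differed by more than sampling noise (chi-square per degree of freedom 7.31 to 18.8). The scripts were tested on simulated counts. Members and lists were chosen with earlier results of these data known. Genes named are all members, Pax5, the 4 smallest p of each pathway list, genes behind counts of 5 or fewer, the 2 most abundant markers per list, closest relatives, and the 3 most similar genes; other names, including Sema4d, the class I genes and chromosomal neighbours, were chosen after values were seen. A few genes covered by this rule were left out of the text. Protein sequences were not used here. Alternatives were other scalings, filters and tests (DESeq2 1.42.0, limma 3.58.1), a replicate block, leaving out each library and a minimum fold change.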

Additional observations from a re-analysis of the deposited data

How the results depend on the processing

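The number of members called higher was 6 under every scaling, filter, test and left-out library tried, except 7 with upper-quartile scaling and 7 with a minimum of 1 CPM in 3 libraries, both through Fcgr2b, and 4 with a minimum fold change of 1.5; none was called lower in any of the 15 alternatives. Leaving out 1 library at a time gave 6 higher and 0 lower each time, with log2 fold changes of 3.10 to 3.30 for Cd22, 2.21 to 2.57 for Siglecg, 0.89 to 1.05 for Cd72, 1.78 to 2.39 for Pirb, 0.43 to 0.47 for Ptpn6, 0.40 to 0.57 for Inpp5d and 0.14 to 0.21 for Fcgr2b. Ptpn6 and Inpp5d were not called above a 1.5-fold change. Fcer1g, Fcgr3, Inppl1 and Sema4d, none of them called, changed sign. With 1 library left out, Fcer1g lay between −0.32 and 0.055 (positive at 0.055 without untreated replicate 3 and 0.029 without dox replicate 3) and Fcgr3 between −0.42 and 0.30 (negative at −0.42 without dox replicate 1 and −0.27 without untreated replicate 2), Inppl1 between −0.24 and 0.019 (positive without dox replicate 1), and Sema4d between −0.028 (without untreated replicate 1) and 0.024. Sema4d was also at −0.0014 with DESeq2 size factors and the DESeq2 test, −0.0013 with total counts and −0.031 with no low-count filter. The cause was not tested. Among the lists, Src was called lower beside Lck, giving 2 in place of 1, also with no low-count filter, under DESeq2 and with the replicate block. The activating receptors called higher were 5 in place of 2 with no low-count filter and 1 with a minimum of 1 CPM in 3 libraries. Same-numbered libraries did not deviate together in every pair (correlations 0.31, 0.29 and −0.04; replicates 1 and 2 correlated best with their own number, replicate 3 did not), so the numbers are not taken to pair the samples. With the replicate number as a block, 6 members were higher and 0 lower, and over all genes 3434 were higher and 3356 lower, against 3316 and 3266 without it. With a minimum fold change of 1.5 these were 928 and 670. Of the lists at that minimum, 7 activating co-receptor genes in place of 13 and 4 ligand genes in place of 11 were higher. In the list of other inhibitory receptors and related genes, 5 in place of 10 were higher. Also higher were 1 other phosphatase in place of 9 and 0 activating receptors in place of 2. Called lower were 1 ligand gene (Cd24a) in place of 2, 0 phosphatases in place of 3 and 0 co-receptor genes in place of 2. Lair1 and most of the activating receptors had too few counts to be tested, and whether greater depth would change this was not tested.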
